A study of Mus musculus with 24 samples.

Results

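Genes that all-trans retinoic acid (ATRA) raised only for a time were followed in P19 cells, which come from a mouse embryonal carcinoma and differentiate under retinoic acid. A gene was a member if its log2 level lay at least 1 above the mean of the EtOH (ethanol) arrays 6 h or 24 h after ATRA and at most 0.5 above it at 72 h. A log2 difference of 1 is a fold change of 2. Of 19938 genes, 134 were members. Members were chosen by the values of the 6 h, 24 h and 72 h ATRA arrays and the EtOH arrays, so every ATRA value below is a description without a test, and the tests use the other agents. Comparisons of those agents with EtOH share the EtOH arrays with the rule, so they are not independent of the choice of members.

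The 24 arrays held 5 ATRA arrays (1 µM), 5 arrays of BMS753 (an agonist of retinoic acid receptor alpha, 1 µM), 5 of BMS641 (an agonist of the beta receptor, 0.1 µM), 5 of BMS961 (an agonist of the gamma receptor, 0.1 µM) and 4 EtOH arrays. Each agent had 1 array at 2, 6, 24, 48 and 72 h, and the EtOH arrays carry no time label. All cells grew in monolayer on gelatine-coated plates. Doses differ between the agents, so only ATRA and BMS753, and BMS961 and BMS641, were given at matched doses. The labels do not say that arrays came from separate cultures, so p-values measure only the spread between these arrays. Part of it is the spread of the EtOH arrays, which may be technical. In the tests of time windows the rest is the difference between neighbouring times of an agent, so it includes change over time. A gene that changes between such times can therefore miss a call. In bulk RNA, fewer cells of a type and less RNA per cell cannot be told apart.

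Retinoic acid enters the nucleus and binds the retinoic acid receptors, which pair with retinoid X receptors on paired DNA half-sites and switch nearby genes on. Embryonal carcinoma cells express the transcription factors of pluripotent cells and lose them as they differentiate. Some genes respond to the ligand at once and others only after new proteins have been made, and retinoic acid also induces the enzymes that break it down.

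The embryonal carcinoma label was checked with pluripotency genes. Pou5f1, which encodes the pluripotency factor OCT4, lay between 12.85 and 12.99 on the log2 intensity scale in the 4 EtOH arrays, and had 5.45 in the ATRA 72 h array and 8.88 in the BMS753 72 h array. Its levels in the BMS641 and BMS961 arrays at 72 h were 12.86 and 12.78. Utf1 and Tdgf1 were also lower at 72 h of ATRA (6.10 and 5.32) and BMS753 (7.86 and 5.77) than in EtOH (at least 11.75 and 11.41). Nanog had 8.82 to 8.91 in EtOH, 10.11 and 7.23 at 24 h and 72 h of BMS753, and 6.01 at 72 h of ATRA. Sox2 differed from these: it had 11.50 to 11.56 in EtOH, 10.36 at 72 h of ATRA and 11.74 at 72 h of BMS753. The median difference from EtOH over all genes stayed between -0.01 and 0.05 in the 20 arrays of the agents. The SD of the difference between a pair of EtOH arrays over all genes was 0.0941 to 0.143, and the SD of a member over the 4 EtOH arrays was 0.0123 to 0.321 (median 0.0783).

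Promoter sequence was matched for 99 of the 134 members in RefSeq (GRCm38.p6), as 141 windows that lie mostly upstream of a gene's start. Each was searched on both strands for a direct repeat of the half-site AGGTCA, with G also allowed as the first letter, T as the third and G as the fifth, set 1, 2 or 5 bases apart, the spacings at which retinoid receptor pairs are known to bind. A spacer of 2 bases was found in the windows of Stra8 and Slc45a3, and is in 0.472% of the 32851 mouse windows. A spacer of 1 base was found in a window of Rxrg, against 0.609% of all windows, and a spacer of 5 bases in no member's window, against 0.323% of all. For spacers of 2, 1 and 5 bases these are 2, 1 and 0 of the 141 member windows, and the difference from all windows was not tested. The windows with a repeat are shown with the half-sites in capitals, because among the 99 matched members only these had such a repeat in a searched window. Tal2, a member with one of the highest ATRA values, is shown beside them as a window in which no such repeat was found. A match is a description of letters and not of binding. Slc45a3 was singled out by its sequence after the values had been seen. The windows lie on the plus strand at chr6:34920698-34920997 (Stra8, germ cell gene induced by retinoic acid), chr1:131970359-131970658 (Slc45a3, a solute carrier), chr1:167618015-167618314 (Rxrg, retinoid X receptor gamma) and chr4:53779451-53779750 (Tal2, a basic helix-loop-helix transcription factor).
Stra8: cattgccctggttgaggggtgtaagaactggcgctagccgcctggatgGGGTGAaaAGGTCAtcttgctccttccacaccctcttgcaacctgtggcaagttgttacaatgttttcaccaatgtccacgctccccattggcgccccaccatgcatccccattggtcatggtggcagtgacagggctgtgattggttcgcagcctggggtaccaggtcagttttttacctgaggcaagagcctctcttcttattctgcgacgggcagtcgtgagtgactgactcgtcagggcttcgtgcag
Slc45a3: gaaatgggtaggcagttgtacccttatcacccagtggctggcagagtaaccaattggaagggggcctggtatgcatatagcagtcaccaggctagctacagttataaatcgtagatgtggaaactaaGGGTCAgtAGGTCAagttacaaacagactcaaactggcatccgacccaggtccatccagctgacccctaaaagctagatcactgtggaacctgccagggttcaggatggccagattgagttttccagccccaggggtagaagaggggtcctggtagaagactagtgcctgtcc
Rxrg: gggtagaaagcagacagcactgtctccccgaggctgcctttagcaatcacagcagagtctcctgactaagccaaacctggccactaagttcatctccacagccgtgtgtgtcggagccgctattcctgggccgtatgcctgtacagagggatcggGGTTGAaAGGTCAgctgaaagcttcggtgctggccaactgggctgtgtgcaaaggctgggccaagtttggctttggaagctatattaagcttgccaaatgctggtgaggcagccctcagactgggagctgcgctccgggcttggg
Tal2: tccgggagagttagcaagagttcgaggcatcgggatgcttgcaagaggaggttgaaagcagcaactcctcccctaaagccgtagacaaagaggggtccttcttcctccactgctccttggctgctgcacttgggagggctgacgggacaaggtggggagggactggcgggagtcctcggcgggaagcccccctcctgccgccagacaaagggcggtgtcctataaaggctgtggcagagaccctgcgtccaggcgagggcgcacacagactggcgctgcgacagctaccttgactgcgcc
The repeats lie 202, 123 and 95 bases before the start of Stra8, Slc45a3 and Rxrg.

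Of the 336 genes at least 1 above EtOH at 6 h or 24 h of ATRA, 202 were still more than 0.5 above it at 72 h, and the other 134 are the members. Of these, 56 members were higher at 6 h than at 24 h, and 78 were higher at 24 h. The values lie close together at the thresholds. Of the members, 131 had 1 probe set, and the other probe set of Gpx4 had 0.99 at 6 h of ATRA. Gpx4, Fam117a and Oxnad1 were just inside the first threshold with 1.01, 1.02 and 1.02, and Pacsin1, with 0.99, was just outside. At 72 h Nt5e, with 0.43, was just inside and Tmem229b, with 0.51, just outside.

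The early members already differed from EtOH at 2 h of ATRA, an array the rule did not use. Their median log2 difference from EtOH with ATRA was 0.62 at 2 h, 1.27 at 6 h, 0.48 at 24 h, -0.24 at 48 h and -0.34 at 72 h. The members higher at 24 h had medians of 0.12, 0.55, 1.40, 0.42 and -0.05 at the same times. At 2 h of ATRA 43 of the 56 early members and 9 of the 78 later ones were at least 0.5 above EtOH, against 0.772% of all genes. At 72 h 42 members were at least 0.5 below EtOH, against 12.6% of all genes, and 17 were at least 1 below, against 4.26%. The rule kept only genes at most 0.5 above EtOH in this array, so these 2 counts are not independent of the choice of members.

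**Figure D1:**
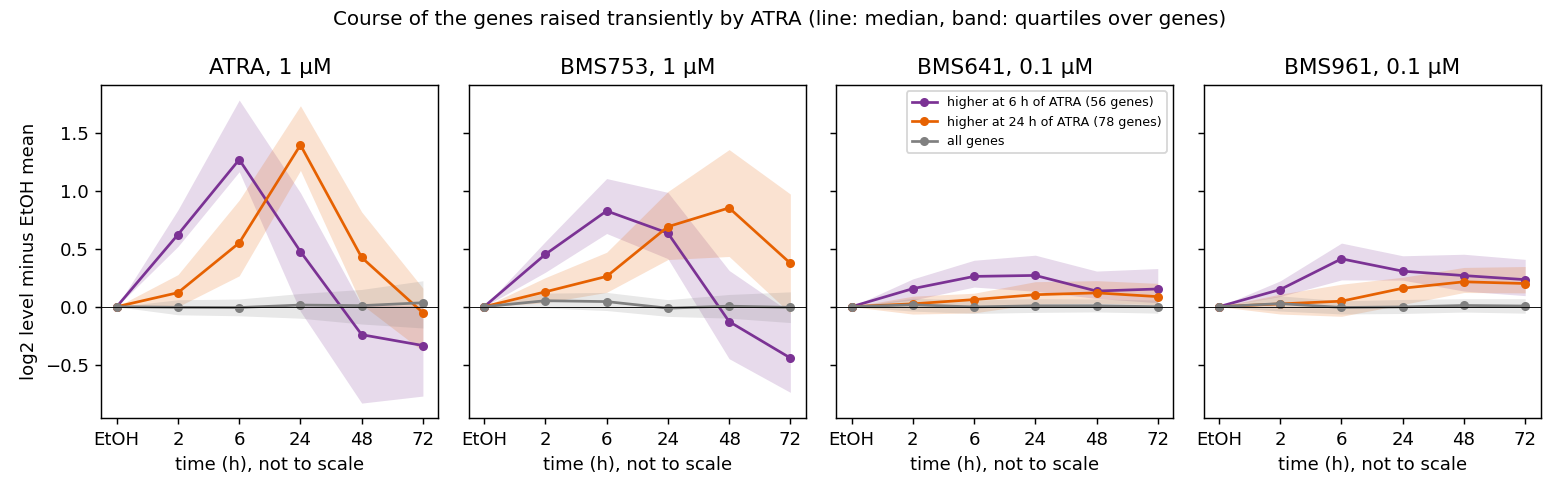
Median log2 difference from EtOH of the 56 members higher at 6 h of ATRA, the 78 members higher at 24 h and all genes, at 5 times (h, not to scale) for each agent, with the quartiles over genes as bands and EtOH set to 0. With ATRA the medians peak at 1.27 (6 h) and 1.40 (24 h), and with BMS753 at 0.83 (6 h) and 0.85 (48 h), while both 0.1 µM agents stay at or below 0.41.

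BMS753 is the other agent given at 1 µM. Over its 6 h and 24 h arrays together 73 of the 134 members rose against EtOH (limma, Benjamini-Hochberg adjusted p under 0.05) and none fell, with 1.93% and 0.361% of all genes called higher and lower. The median log2 difference from EtOH over all members was 0.60. Among the early members 43 of 56 were called higher and among the later ones 30 of 78. The EtOH arrays also set the rule, so this count is not independent of the choice of members. It was 45 without the 24 h arrays, 32 with the ATRA arrays in the fit and 115 where the error came only from the EtOH arrays. With the ATRA arrays in the fit, differences between neighbouring ATRA times enter the error. The rule chose members by some of those arrays, so calls lost in that fit, here and below, are not independent of that choice.

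ATRA had the higher level at 6 h in 118 of the 134 members, set against BMS753 at the same dose and time, and at 24 h in 93. At 48 h, which the rule did not use, ATRA was lower than BMS753 in 96 members. The rule itself selected for high ATRA values at 6 h or 24 h and low ones at 72 h. With 1 array per agent and time these counts have no test, and they were not made over all genes. At any time 68 members were at least 1 above EtOH with BMS753, against 3.53% of all genes, and 32 met with BMS753 the same rule they met with ATRA, against 0.236%.

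**Figure D2:**
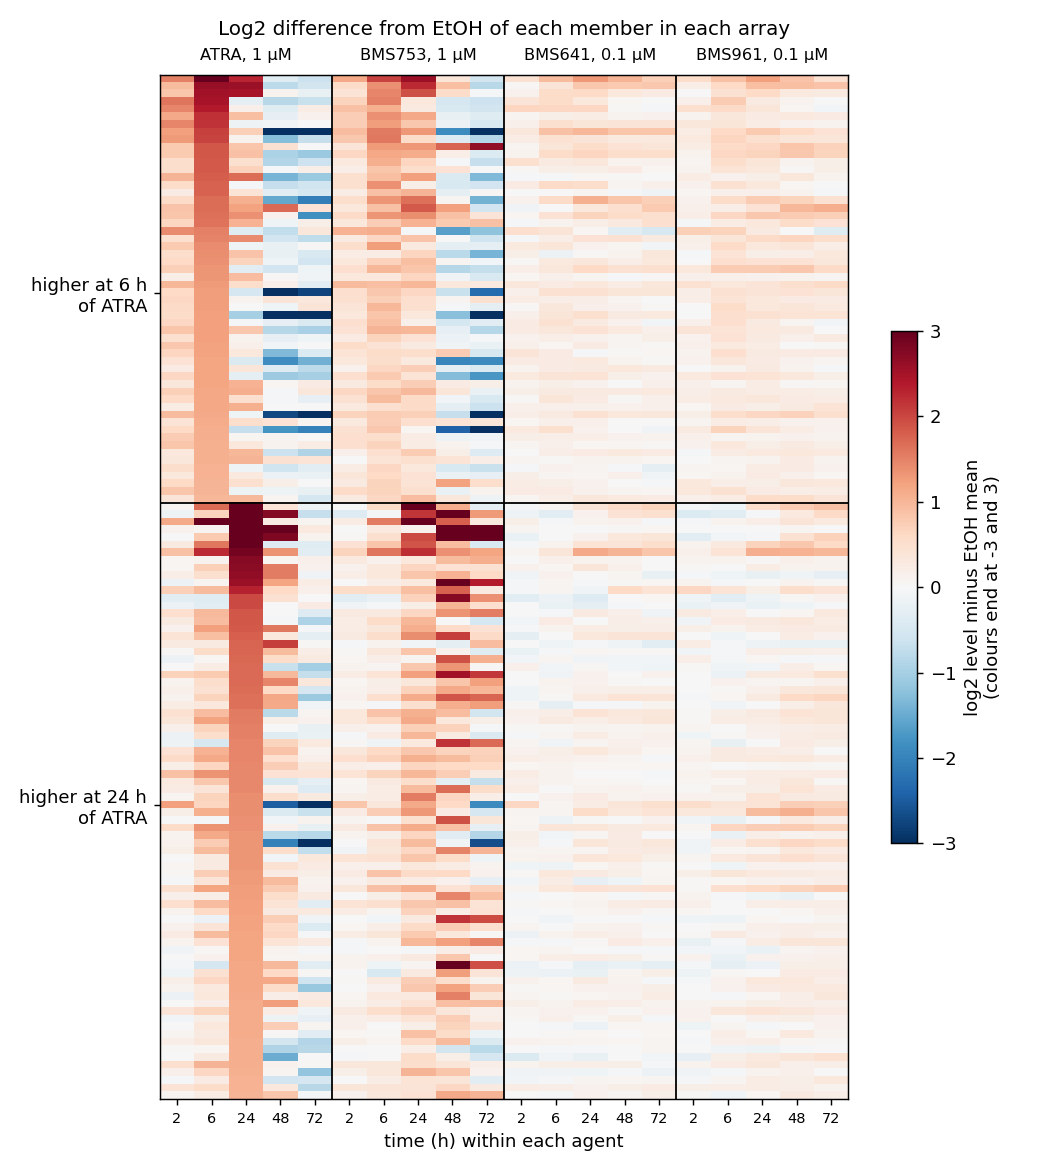
Log2 difference from EtOH of each of the 134 members (rows) in each of the 20 arrays of the 4 agents (columns, times in h), with the members higher at 6 h of ATRA above those higher at 24 h, each ordered by the highest ATRA value. Colours end at -3 and 3. The ATRA columns at 6 h and 24 h hold high values by the choice of members, and in the lower block the BMS753 columns at 48 h and 72 h stay red for many genes.

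Whether the members came down again with BMS753 was tested without any array of the rule, as the mean at 6 h and 24 h against the mean at 48 h and 72 h. In this comparison 66 of 134 members were higher at 6 h and 24 h and 26 were lower, with 14.5% and 12.6% of all genes called in those directions. The classes parted. Of the early members 50 of 56 were higher at 6 h and 24 h and 1 was lower, with a median of 1.03 on the log2 scale, and of the later members 16 of 78 were higher and 25 lower, with a median of -0.03. The difference between the classes was not tested. Of the 202 genes that ATRA had kept up at 72 h, 24 were higher and 138 lower at 6 h and 24 h of BMS753 than at 48 h and 72 h.

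**Figure D3:**
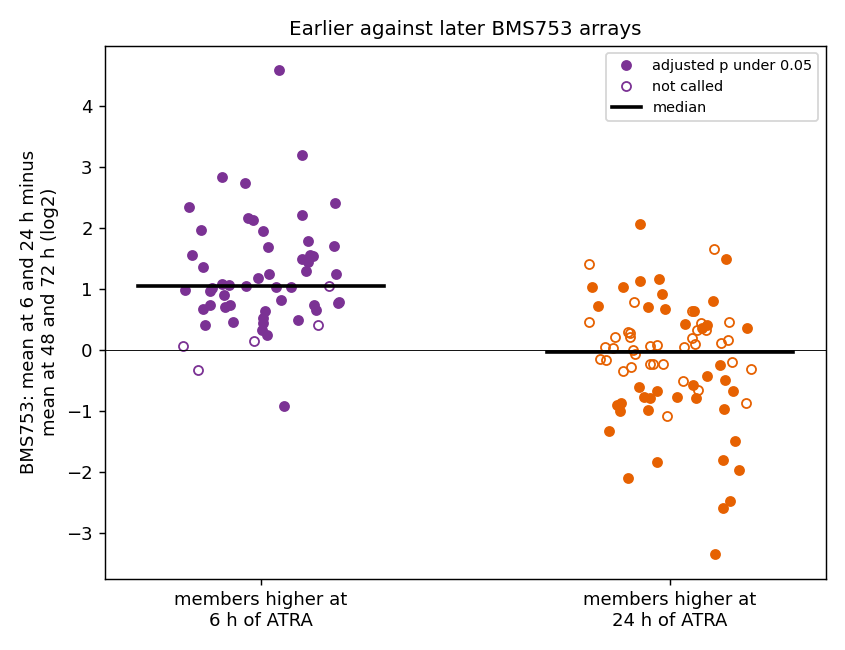
Mean log2 level at 6 h and 24 h minus mean at 48 h and 72 h of BMS753 for each member, by the ATRA time at which it was higher, with filled points for an adjusted p under 0.05 and bars for the median. Most early members lie above 0 (median 1.03), and the later members spread to both sides (median -0.03).

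Set against EtOH, 58 members were higher at 48 h and 72 h of BMS753 and 25 lower, with 16.6% and 16.3% of all genes called. The lower ones were mostly early members (21 of 25), and the higher ones mostly later members (50 of 58). The commonest combination of calls with BMS753 was a gene higher than EtOH at 6 h and 24 h, not called at 48 h and 72 h and lower in the later window than in the earlier, in 31 members. Another 13 were higher than EtOH early and lower late. In another 18 members calls were made only for 48 h and 72 h, above both EtOH and the earlier window. How often all genes show these combinations was not counted.

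Some early members ended far below EtOH. Nr0b1, which encodes the orphan receptor DAX1 of embryonic stem cells, had 11.98, 12.78, 11.45, 6.77 and 6.05 at 2, 6, 24, 48 and 72 h of ATRA, 11.67, 12.31, 12.05, 8.85 and 6.36 at those times of BMS753, and 10.70, 10.66, 10.80 and 10.81 in the EtOH arrays. Both agents at 1 µM therefore held it above all EtOH arrays up to 24 h and below all of them from 48 h. With BMS753 it was higher at 6 h and 24 h than at 48 h and 72 h by 4.58 ± 0.48 (SE, log2; limma adjusted p = 5.81e-06), a 23.9-fold difference, and the call held under every alternative tried. Its difference from EtOH at 6 h and 24 h, 1.44 ± 0.41, did not pass (limma adjusted p = 0.102), but passed when the 48 h or the 72 h arrays were left out (limma adjusted p = 2.83e-08 and 2.73e-08) and where the error came only from EtOH.

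Rxrg, the retinoid X receptor whose promoter is shown above, was high at 6 h of both 1 µM agents and low at the end. It had 9.77, 10.45, 8.23, 5.47 and 5.59 at the ATRA times, 9.53, 10.04, 9.54, 7.96 and 5.97 at the BMS753 times, and 9.39, 9.05, 9.21 and 9.21 in EtOH. The 48 h and 72 h arrays of both agents, and the 24 h array of ATRA, lay below every EtOH array. With BMS753 it was higher at 6 h and 24 h than at 48 h and 72 h by 2.82 ± 0.39 (adjusted p = 8.99e-05, limma).

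Eras (a Ras protein of embryonic stem cells) had 9.15, 9.34, 8.06, 5.46 and 4.76 with ATRA, 8.86, 8.96, 8.92, 7.51 and 4.92 with BMS753 and 8.10 to 8.29 in EtOH. Its BMS753 arrays at 6 h and 24 h were higher than those at 48 h and 72 h by 2.73 ± 0.50 (adjusted p = 0.000784, limma). Dnmt3a, a DNA methyltransferase that sets new methylation marks, differed by 2.12 ± 0.12 in that comparison and Steap3, an iron reductase, by 2.21 ± 0.31 (limma adjusted p = 1.43e-08 and 9.93e-05). Gca, the calcium-binding protein grancalcin, and Ppfibp2, a liprin, differed by 3.19 ± 0.21 and 2.34 ± 0.07 (limma adjusted p = 8.4e-08 and 6.45e-11). These 5 differences passed under every alternative tried.

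Upp1 and Lefty1 had the lowest ATRA values at 72 h after Nr0b1, with -4.23 and -4.21 from EtOH. Lefty1, an inhibitor of Nodal signals, had 11.23, 10.74, 11.53, 10.99 and 8.48 with BMS753 and 10.30 to 10.48 in EtOH. All BMS753 arrays up to 48 h lay above the EtOH arrays and the 72 h array below them, and the difference between the windows, 1.40 ± 0.50, did not pass (adjusted p = 0.0525, limma). It passed without the dimmest genes (adjusted p = 0.0454, limma), with the 48 h arrays left out (2.65, adjusted p = 7.63e-08) and where the error came only from EtOH. Upp1, a uridine phosphorylase, had 10.62 to 10.90 in EtOH, with the highest of those arrays apart from the others. It differed between the windows by 2.06 ± 0.51 (adjusted p = 0.00701, limma), a call lost without the 24 h arrays. Lefty2, a close relative of Lefty1, had 7.32 at 24 h of ATRA, at most 6.77 with BMS753, at 48 h, and 4.92 to 5.11 in EtOH.

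Among the named members the highest ATRA values at 2 h were those of Cidea, Hoxb13, Enpp4 and Kcnip3, which lay 1.61, 1.46, 1.43 and 1.27 above EtOH. Kcnip3, a calcium-binding repressor and channel partner, had 10.79, 11.54, 9.63, 8.23 and 8.83 with ATRA, 10.33, 11.10, 10.06, 9.13 and 8.65 with BMS753 and 9.48 to 9.57 in EtOH. Its 48 h and 72 h arrays lay below every EtOH array with both agents. With BMS753 it was higher at 6 h and 24 h than later by 1.69 ± 0.22 (adjusted p = 5.58e-05, limma). Enpp4, a surface ectoenzyme, differed by 1.95 ± 0.26 (adjusted p = 6.77e-05, limma). Hoxb13, a posterior homeobox gene, and Cidea, a lipid droplet protein, differed by 1.18 ± 0.18 and 1.48 ± 0.27, calls lost with the ATRA arrays in the fit.

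Tle6, a relative of the Groucho co-repressors, had 7.66, 9.34, 9.31, 6.94 and 6.60 with ATRA, 7.25, 8.28, 8.75, 7.37 and 6.78 with BMS753 and 6.75 to 6.96 in EtOH. The 6 h and 24 h arrays lay above all EtOH arrays with both agents and the 72 h arrays within or below them. With BMS753 it rose over EtOH by 1.69 ± 0.14 at 6 h and 24 h (adjusted p = 6.22e-06, limma), a 3.22-fold rise, and stood 1.44 ± 0.16 above its later window (adjusted p = 1.14e-05, limma).

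Tal2 had 5.53, 8.75, 8.94, 4.62 and 4.47 with ATRA, 4.63, 5.95, 7.89, 6.19 and 4.69 with BMS753 and 4.35 to 4.44 in EtOH. All 10 of these arrays lay above the EtOH arrays, with ATRA near them again by 48 h and BMS753 by 72 h. With BMS753 it rose by 2.52 ± 0.41 over EtOH (adjusted p = 0.00291, limma), a 5.74-fold rise and the highest among the named members. That call did not pass when the 24 h arrays were left out. It fell by 1.48 between the windows (adjusted p = 0.0284, limma), a call that needed both the 24 h and the 72 h arrays and was lost with robust variance moderation.

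Porcn, the acyltransferase that lipid-modifies Wnt proteins for secretion, had 9.15, 10.51, 11.13, 9.60 and 7.93 with ATRA, 8.93, 9.86, 10.49, 9.62 and 9.45 with BMS753 and 8.19 to 8.37 in EtOH. Every BMS753 array lay above the EtOH arrays, and the ATRA 72 h array below them. It rose with BMS753 by 1.91 ± 0.21 at 6 h and 24 h and by 1.27 ± 0.21 at 48 h and 72 h (limma adjusted p = 9.41e-05 and 0.00021). Alpl, the alkaline phosphatase of pluripotent and germ cells, rose by 1.36 ± 0.10 and 0.63 ± 0.10 in the same windows (limma adjusted p = 2.46e-06 and 0.000183), calls lost with the ATRA arrays in the fit.

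**Figure D4:**
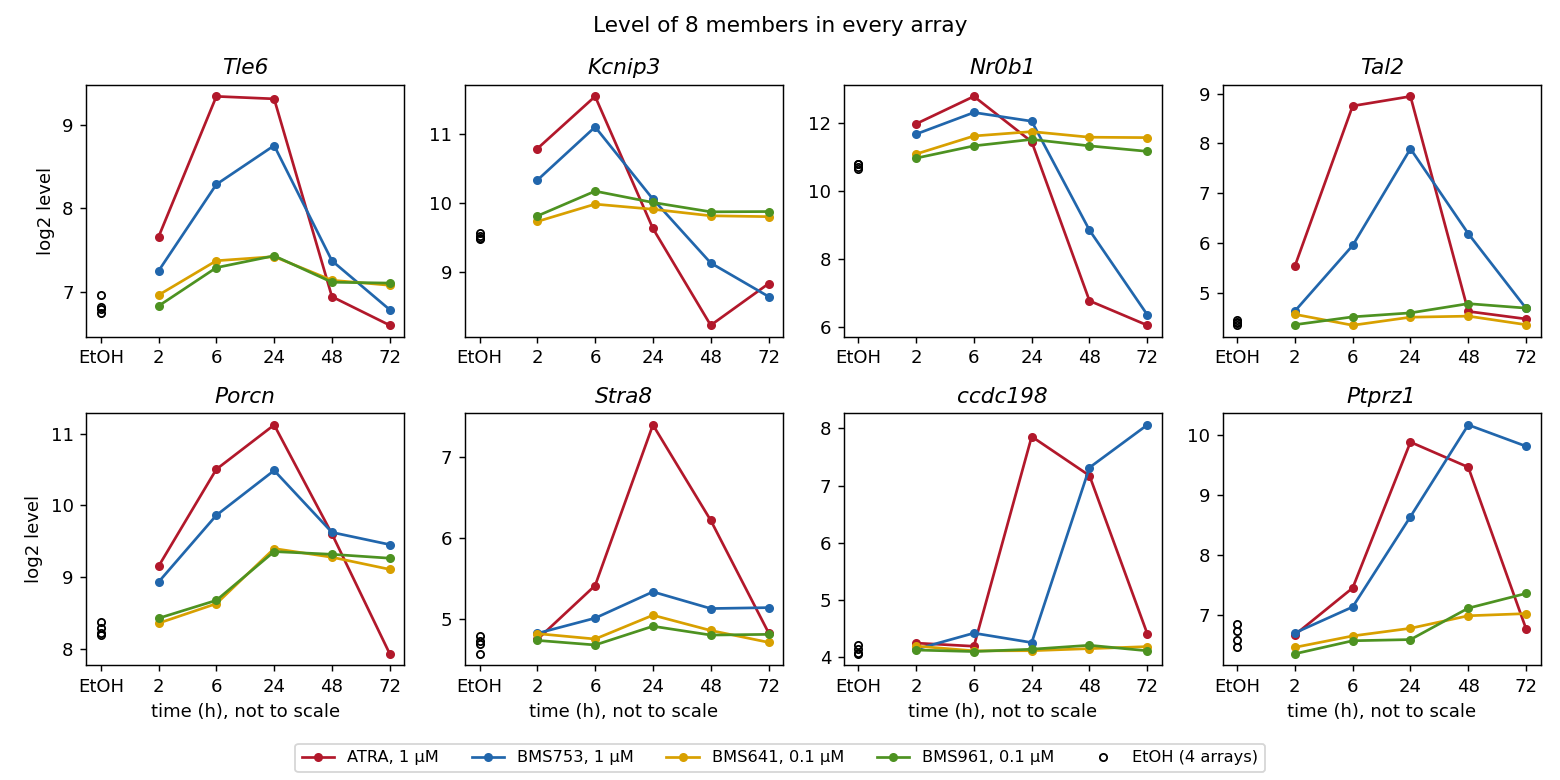
Log2 level of 8 members in every array against time (h, not to scale), with lines for the 4 agents and open points for the 4 EtOH arrays. Tle6, Kcnip3 and Nr0b1 turn back with both 1 µM agents, Porcn stays above EtOH with BMS753 (9.45 at 72 h), Stra8 moves far with ATRA (7.40 at 24 h) and little with BMS753 (5.34), and ccdc198 and Ptprz1 stay high with BMS753 at 72 h (8.06 and 9.81).

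Glra2 and Ephx2 had the highest ATRA values among the named members, 5.23 and 4.63 above EtOH at 24 h. Glra2, a glycine receptor subunit, had 4.27, 4.83, 7.86, 5.39 and 4.01 with BMS753 and 4.19 to 4.38 in EtOH, so that 1 array carried most of its BMS753 value. Its difference from EtOH at 6 h and 24 h, 2.06 ± 0.56, did not pass (adjusted p = 0.0802, limma), but passed with the 48 h or the 72 h arrays left out (limma adjusted p = 0.0353 and 0.0356), with the 6 h arrays left out (0.000271, at a difference of 3.57) and where the error came only from EtOH. Ephx2, the soluble epoxide hydrolase, had 6.05, 6.40, 8.58, 9.44 and 7.71 with BMS753 and 6.13 to 6.57 in EtOH, where the lowest array lay apart from the others, and was higher than EtOH at 48 h and 72 h by 2.14 ± 0.47 (adjusted p = 0.0026, limma), a call lost with the ATRA arrays in the fit (limma adjusted p = 0.134) and with the 48 h arrays left out (0.0602).

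Stra8 responded to BMS753 by little. Its levels were 4.75, 5.42, 7.40, 6.22 and 4.84 with ATRA, 4.83, 5.01, 5.34, 5.13 and 5.14 with BMS753, and 4.57, 4.80, 4.69 and 4.73 in EtOH. All BMS753 arrays lay above the EtOH arrays, by far less than the ATRA 24 h array. With BMS753 it was 0.48 ± 0.10 above EtOH at 6 h and 24 h and 0.44 ± 0.10 at 48 h and 72 h (limma adjusted p = 0.02 and 0.00336), calls that were both lost with the ATRA arrays in the fit. The earlier one was also lost without EtOH replicate 1 or 3 (limma adjusted p = 0.0588 and 0.0564) and without the 24 h arrays (0.148). Gabrg1, a subunit of the GABA-A receptor, and Dhrs9, a short-chain dehydrogenase that can oxidise retinol, had 6.84 and 6.05 at 24 h of ATRA, 4.42 and 4.82 at 24 h of BMS753, and means of 4.10 and 4.87 in EtOH. Gabrg1 had 5.06 and 5.19 at 48 h and 72 h of BMS753, 1.02 ± 0.06 above EtOH (adjusted p = 8.48e-09, limma), a call lost with the ATRA arrays in the fit.

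Other members that passed with ATRA stayed up with BMS753 to the last array. ccdc198 had 4.24, 4.18, 7.86, 7.17 and 4.40 with ATRA, 4.13, 4.41, 4.25, 7.32 and 8.06 with BMS753 and 4.05 to 4.21 in EtOH. The ATRA values were high at 24 h and 48 h, and the BMS753 values at 48 h and 72 h. It was higher at 48 h and 72 h of BMS753 than in EtOH by 3.58 ± 0.13, an 11.9-fold difference, and its mean at 6 h and 24 h minus that at 48 h and 72 h was -3.36 ± 0.16 (limma adjusted p = 1.25e-10 and 2.32e-09).

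Grifin, a galectin-related lens protein, Plxnc1, a semaphorin receptor, Fgfbp3, which binds FGFs, and Lfng, the fringe enzyme that modifies Notch, were above EtOH at 48 h and 72 h of BMS753 by 2.84 ± 0.17, 2.47 ± 0.21, 2.06 ± 0.09 and 1.94 ± 0.12 (limma adjusted p at most 4.3e-07). At 6 h and 24 h their differences from EtOH were 0.25, -0.02, 0.09 and 0.09, none called, and the lowest EtOH array of Fgfbp3 (7.25) lay apart from the others. Ptprz1, a receptor phosphatase of neural cells, had 7.14, 8.64, 10.17 and 9.81 at 6, 24, 48 and 72 h of BMS753 and 6.48 to 6.85 in EtOH, and stood 3.33 ± 0.27 above EtOH in the later window (adjusted p = 2.7e-07, limma). Tfap2c, a transcription factor of trophoblast and germ cells, stood 1.44 ± 0.13 above EtOH there (adjusted p = 6.23e-07, limma).

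Marker lists of other cell types differed in these later arrays, in both directions. The mean of the 13 neural progenitor markers was 8.69 at 48 h and 8.97 at 72 h of BMS753, against 7.79 to 7.81 in EtOH, and that of the 12 neural crest markers was 7.00 and 8.0, against 6.46 to 6.51. The 14 neuron markers had means of 7.23 and 7.28 there, against 7.38 to 7.43 in EtOH, and the 9 glia markers 6.56 and 6.53, against 6.66 to 6.71. In the ATRA 72 h array the 14 neuron markers had a mean of 8.92, against 7.38 to 7.43 in EtOH. The 28 measured pluripotency genes had one of 6.81 there, against 8.49 to 8.54. Other lists were also above EtOH there: neural progenitor 8.46, fibroblast and smooth muscle 8.09 (EtOH 6.77 to 6.84) and neural crest 7.58. So were endoderm 7.34 (6.42 to 6.54), cardiac and somite 6.97 (6.10 to 6.20) and glia 6.95. The trophoblast list, 7.04, was not (7.04 to 7.06). At 72 h of BMS753 the fibroblast, endoderm, cardiac and trophoblast lists had 7.29, 6.98, 6.49 and 6.90. The part of these shifts in the members' values was not tested.

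With BMS641 and BMS961 the members moved little. Over the 6 h and 24 h arrays the median log2 difference from EtOH was 0.21 with BMS961 and 0.15 with BMS641. As with BMS753, the EtOH arrays also set the rule, so small differences from EtOH may partly reflect the choice of members. Of the members, 4 rose with BMS961 (limma adjusted p under 0.05), against 0.0652% of all genes called higher and 0.01% lower, and 0 with BMS641, where limma called 0.0% of all genes. At an unadjusted p under 0.05 there were 49 members with BMS961 and 36 with BMS641, against 1016 and 865 of all 19938 genes. Where the error came only from EtOH, limma called 44 and 25 members, with no count over all genes to set beside them. Leaving out the arrays of a time gave 0 members with BMS961 (24 h left out), 2 (6 h), 14 (48 h) or 15 (72 h), and with BMS641 gave 1 (6 h), 9 (48 h) or 9 (72 h). With the ATRA arrays in the fit the BMS961 count was 0.

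The 4 called with BMS961 were Alpl (0.71 ± 0.10), AI504432 (0.76 ± 0.11), Fam171b (0.55 ± 0.07) and Hpcal1 (0.47 ± 0.07), the last 3 named after their values were seen. Alpl had 11.29 and 11.46 at 6 h and 24 h of BMS961, 11.09 and 11.34 with BMS641 and 10.64 to 10.72 in EtOH. At 6 h and 24 h, therefore, neither agent's arrays overlapped EtOH. Nr0b1 and Actn3, a muscle actinin, had BMS641 differences of 0.94 ± 0.41 and 0.83 ± 0.27, and Porcn had a BMS961 difference of 0.75 ± 0.21, none of them called. Nr0b1 had 11.52 at 24 h and 11.17 at 72 h of BMS961, 11.75 and 11.57 at those times of BMS641, and 10.66 to 10.81 in EtOH. Both the 6 h and the 24 h array lay above every EtOH array in 114 members with BMS753, 84 with BMS961 and 65 with BMS641, against 12.9%, 8.37% and 9.47% of all genes. These counts use the EtOH arrays of the rule and have no test.

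No return was called with the 0.1 µM agents. Between the 6 h and 24 h arrays and the 48 h and 72 h arrays limma called 0 members with BMS961 and 0 with BMS641, where 0.0% of all genes were called. An unadjusted p under 0.05 was found for 13 and 6 members, against 840 and 489 of all 19938 genes. Where the error came only from EtOH, limma called 4 and 4. BMS961 and BMS641 at 0.1 µM, the 1 pair of agonists tested at a matched dose, differed over 6 h and 24 h in 0 members and 0.0% of all genes (limma). For this pair 4 members had an unadjusted p under 0.05, against 397 of all 19938 genes. The median difference was 0.05 over the members. For Nr0b1 it was -0.26 (95% interval -1.28 to 0.76), for Porcn 0.00 (-0.51 to 0.51) and for Alpl 0.16 (-0.09 to 0.41), intervals that do not show that the agonists act alike.

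Small differences between them were called once their arrays were paired by time over all 5 times, a fit to these 10 arrays alone that was added after the data had been seen. In it 4 members were higher with BMS961 than with BMS641 and 1 was lower, against 0.12% and 0.0251% of all genes. Nr0b1 was the lower one, with 10.97, 11.33, 11.52, 11.33 and 11.17 at 2, 6, 24, 48 and 72 h of BMS961 and 11.09, 11.62, 11.75, 11.58 and 11.57 at those times of BMS641. It was below at each of the 5 times, by -0.26 ± 0.03 (95% interval -0.33 to -0.20; limma adjusted p = 0.00102).

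Alpl had 10.88, 11.29, 11.46, 11.43 and 11.37 with BMS961 and 10.72, 11.09, 11.34, 11.22 and 11.15 with BMS641. It was above at each of the 5 times, by 0.18 ± 0.02 (0.14 to 0.23; limma adjusted p = 0.00122). Bhlhe40, a transcriptional repressor, was higher by 0.38 ± 0.04, Plekhb1, a pleckstrin-homology protein, by 0.41 ± 0.06 and Atp11b, a phospholipid flippase, by 0.30 ± 0.05 (limma adjusted p = 0.00102, 0.0202 and 0.0202), at 5, 5 and 4 of the 5 times. Bhlhe40 and Plekhb1 were named after their values were seen. The calls on Nr0b1, Alpl and Bhlhe40 held with any 1 time left out, and those on Plekhb1 and Atp11b did not. Leaving out 2 h gave 22 higher members and 2 lower, with 0.627% and 0.426% of all genes called in those directions. Leaving out 6 h or 72 h gave 3 higher, against 0.0451% and 0.0702% of all genes. Leaving out 24 h or 48 h gave 2 higher, against 0.0552% and 0.0351%. Porcn differed by 0.05 (-0.02 to 0.13) and was not called.

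Of the members, 9 belong to lists of pathway and marker genes. They are Rxrg and Stra8 among 27 measured retinoid genes, Lefty1 and Lefty2 among 26 genes of the primitive streak, Nr0b1 and Dnmt3a among 28 pluripotency genes, Hoxb13 among 32 Hox genes, Lfng among 24 Notch and proneural genes and Tfap2c among 9 trophoblast genes. Of the 27 retinoid genes 12 were at least 1 above EtOH at 6 h or 24 h of ATRA, and 10 of those were still more than 0.5 above it at 72 h. Of the 32 Hox genes 13 were at least 1 above EtOH at 6 h or 24 h and 12 of those more than 0.5 above it at 72 h, so Hoxb13 was the 1 that returned. With BMS753 11 of the 27 retinoid genes rose and 1 fell at 6 h and 24 h, against 1.93% and 0.361% of all genes.

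After their values had been seen, 62 members were sorted by role, and the shares to set beside the counts are 14.5% of all genes higher and 12.6% lower between the BMS753 windows, and 16.6% above EtOH at 48 h and 72 h. Of 11 transcription and chromatin genes 6 were higher at 6 h and 24 h than at 48 h and 72 h of BMS753 and 2 were lower. Of 4 nuclear receptor and retinoid target genes 2 were higher and 1 lower. Of 7 intracellular signalling genes 3 were higher and 1 lower, and 2 and 3 genes of these 2 roles stood above EtOH at 48 h and 72 h. Of 10 genes for secreted signals and their handling 1 was higher and 5 were lower, and 8 stood above EtOH at 48 h and 72 h. Of 10 ion channel and transmitter genes 6 were higher and 1 lower, of 16 enzymes 8 were higher and 0 lower, and all 4 germ cell and meiosis genes were higher. Alpl, Stra8 and Tfap2c, also described above with germ cells, are not among those 4. In that comparison Alpl was higher, Stra8 was not called and Tfap2c was lower. Above EtOH at 48 h and 72 h stood 3 of the 11 transcription and chromatin genes and 3 of the 10 ion channel genes. So did 6 of the 16 enzymes and 0 of the 4 germ cell and meiosis genes.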

How the data were processed

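P19 RNA was measured on 24 Affymetrix Mouse Gene 1.0 ST arrays. The deposited table holds 1 log2 intensity for each probe set and array, which the authors obtained from Affymetrix Expression Console 1.1, per the submitters' processing notes. The background correction and normalization are not given in the sources used here. Of 35556 probe sets 21789 had 1 gene symbol, and the probe set with the highest mean stood for each of 19938 genes. F9 cells were not analysed here.

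A limma 3.58.1 model (R 4.3.3, lmFit and eBayes with trend) was fitted to 19 arrays, without ATRA, which the rule for members used. It had 1 mean for EtOH and, per BMS agent, 1 at 2 h, 1 at 6 h and 24 h, and 1 at 48 h and 72 h. Neighbouring times served as repeats, so their difference is part of the error. P-values were two-sided and adjusted (Benjamini-Hochberg) over all genes within each of 8 comparisons. A fit of BMS961 and BMS641 paired by time was added after the data had been seen. The number of arrays limits the precision. The fit was tested on simulated data.

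The members and gene lists were chosen with earlier results of these data known. Genes were named by rank: the 12 highest with ATRA at 6 h or 24 h, the 6 highest at 2 h, the 6 lowest at 72 h, the 8 highest and 6 lowest in the BMS753 comparisons, the 4 highest with each 0.1 µM agent, members in gene lists and genes at the thresholds. In this naming 6 predicted or unnamed transcripts were passed over. Alternatives changed the probe set rule, a filter on dim genes, normalization, the variance estimate, the arrays in the fit and the thresholds of the rule.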

Additional observations from a re-analysis of the deposited data

Results flagged for a closer look

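In 5 of 74 genes 1 of the 4 EtOH arrays stood apart from the other 3 by Dixon's criterion at the 95% level, which chance meets in about 1 in 20 groups. The 74 genes included members outside the naming by rank, such as St8sia6 and Tcp11. Upp1 had 10.90 in that array, against 10.62 to 10.67 in the others. St8sia6 had 5.90, against 5.69 to 5.73. Ephx2 had 6.13, against 6.49 to 6.57. Tcp11 had 6.70, against 6.88 to 6.91. Fgfbp3 had 7.25, against 7.33 to 7.35.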

How the results depend on the processing

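The number of members lay between 91 and 199 over the alternative thresholds, probe set rules and left-out arrays. Arrays could not be paired by replicate, because only the EtOH arrays carry replicate numbers. Pairing BMS961 with BMS641 by time, a fit chosen after seeing the data, called 4 members higher, where the unpaired windows gave 0, and 22, 3, 2, 2 and 3 with 2, 6, 24, 48 or 72 h left out. Calls over all genes also rose without 2 h, to 0.627% higher from 0.12% with all times. The count of members higher with BMS753 at 6 h and 24 h than in EtOH was 73, with 115 where the error came only from EtOH, 32 with the ATRA arrays in the fit and 45 to 100 with an array or time left out. The matching count with BMS961 was 4, with 44 and 0 under those 2 settings and 0 to 15 with an array or time left out, and with BMS641 it was 0, with 25 with the error from EtOH only and 0 to 9 with an array or time left out. Between the windows of BMS641 and of BMS961 the error from EtOH only gave 4 calls each. Counts with the ATRA arrays in the fit are not independent of the choice of members, because change between ATRA times enters the error. The count of members higher at 6 h and 24 h than at 48 h and 72 h of BMS753 stayed between 46 and 81, and that at 48 h and 72 h over EtOH between 39 and 73. There were 132 calls on named genes and some members outside the naming by rank. Of these, 59 held under every alternative in which the gene was tested and 73 were lost under at least 1. Another 72 differences that were not called gained a call under at least 1. Leaving out a time reversed 5 differences. With the 48 h or the 72 h arrays left out, the later BMS753 window minus EtOH was -0.25 or 0.88 for Atp11b, -0.55 or 0.92 for Chrna4, -0.84 or 0.89 for Dcaf12l1 and -1.92 or 0.59 for Lefty1, and Lefty2's difference between the windows was 0.47 or -1.03. The cause was not tested.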
